A study of Canis lupus familiaris with 124 samples.

Results

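CSF1R, RAC2 and ALOX5AP are 3 genes of leukocytes among the 32183 genes listed in RNA sequencing data of canine prostate and bladder carcinomas. They were chosen by name, with earlier results of these data known. Their levels are given here in all 8 cell lines and all 9 tumor tissues as a view of the immune cells in the tissues. Their Ensembl identifiers in the count tables are ENSCAFG00000018219 (CSF1R), ENSCAFG00000001508 (RAC2) and ENSCAFG00000006585 (ALOX5AP).

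The study set cell lines beside the tumors they came from. The samples came from 9 patient dogs aged 6 to 11 years. Dog 2 was a male German Rough-haired Pointer. Dogs 3 to 6 were neutered males (mixed breed, Dobermann, Pitbull Terrier and Bolonka Zwetna). Dogs 7, 8 and 10 were females (Labrador Retriever, Cairn Terrier and German Shepherd), and dog 9 was a neutered female Miniature Pinscher. From prostate adenocarcinoma (PAC) came the cell lines Adcarc0846 (dog 2), Adcarc1508 (dog 3) and Adcarc1511.1 (dog 4), and from lymph node metastases of the PAC of dog 4 came Metadcarc1511.2 and Metadcarc1511.3. From transitional cell carcinoma (TCC) came TCC0840 (dog 5, a needle aspirate), TCC1506 (dog 7, bladder) and TCC1509 (dog 6, prostate). The tissues were the PAC P2 (dog 2), Ln4.2 and Ln4.3 from PAC metastases (both dog 4), the TCC P6.1 of the prostate and its lymph node metastasis Ln6.2 (both dog 6), and the bladder TCC B7, B8, B9 and B10 (dogs 7 to 10). The 5 cell lines with their tissue of origin were Adcarc0846 and P2, Metadcarc1511.2 and Ln4.2, Metadcarc1511.3 and Ln4.3, TCC1506 and B7, and TCC1509 and P6.1. Each cell line was sequenced as 2 or 3 libraries of 1 culture at passages between 68 and 448, and each tissue as 1 library, so p-values measure the spread between these samples. The pooled cell lines held 33500670 to 55488815 counts and the tissues 11920434 to 18086891. Tissue pieces were not microdissected, and the study's histology describes lymphoid and connective tissue in Ln4.2 and Ln4.3 and almost pure tumor in B7. RNA of cell lines and of tissues was isolated with different kits, so the kit and the kind of sample cannot be told apart.

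CSF1R is the receptor tyrosine kinase for the cytokines CSF1 and IL34 and is carried mainly by monocytes and macrophages, whose survival depends on it. RAC2 is a small GTPase of blood cells. It drives actin remodelling and is part of the phagocyte NADPH oxidase, while its relative RAC1 is found in nearly every cell. ALOX5AP (also called FLAP) is a membrane protein of myeloid cells that presents arachidonic acid to 5-lipoxygenase, the first enzyme of leukotriene synthesis. A cell line is grown from tumor cells, whereas a piece of tumor holds macrophages, lymphocytes, fibroblasts and vessels beside the tumor cells. In such bulk samples, fewer cells of a type and less RNA per cell cannot be told apart.

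In the cell lines, CSF1R and ALOX5AP were at or close to 0 and RAC2 was low but detected. CSF1R had 0 counts in 6 of the 8 cell lines and 2 counts each in Metadcarc1511.3 and TCC1509, which is 4 counts in all cell lines together. ALOX5AP had 1 count in TCC1506 and 0 in the other 7 cell lines. A count of 0 allows up to 3 counts, which in the cell lines is a floor of 0.0541 to 0.0896 CPM (counts scaled to a common sample total). RAC2 had 135 counts in the 8 cell lines, with a lowest level of 0.0597 CPM in TCC0840 (2 counts), a median of 0.227 CPM and a highest level of 1.08 CPM in TCC1509 (56 counts).

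In the tissues, all 3 genes were measured in every sample. CSF1R ranged from 10.8 CPM in B7 over a median of 77.0 to 352 in P2, with a mean of 114 ± 115 (SD, n = 9). RAC2 ranged from 1.73 CPM in B7 over a median of 15.4 to 85.8 in Ln4.3, with a mean of 27.9 ± 31.1. ALOX5AP ranged from 1.11 CPM in B9 over a median of 4.86 to 12 in P6.1, with a mean of 5.88 ± 3.86. No cell line overlapped with a tissue for any of the 3 genes, and the gap was narrowest for RAC2, between TCC1509 at 1.08 CPM and B7 at 1.73. For comparison, 3.45% of the 12396 genes tested were lower in every cell line than in every tissue. The highest tissue held 32.7 times the CSF1R level of the lowest, 49.5 times its RAC2 level and 10.9 times its ALOX5AP level.

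**Figure D1:**
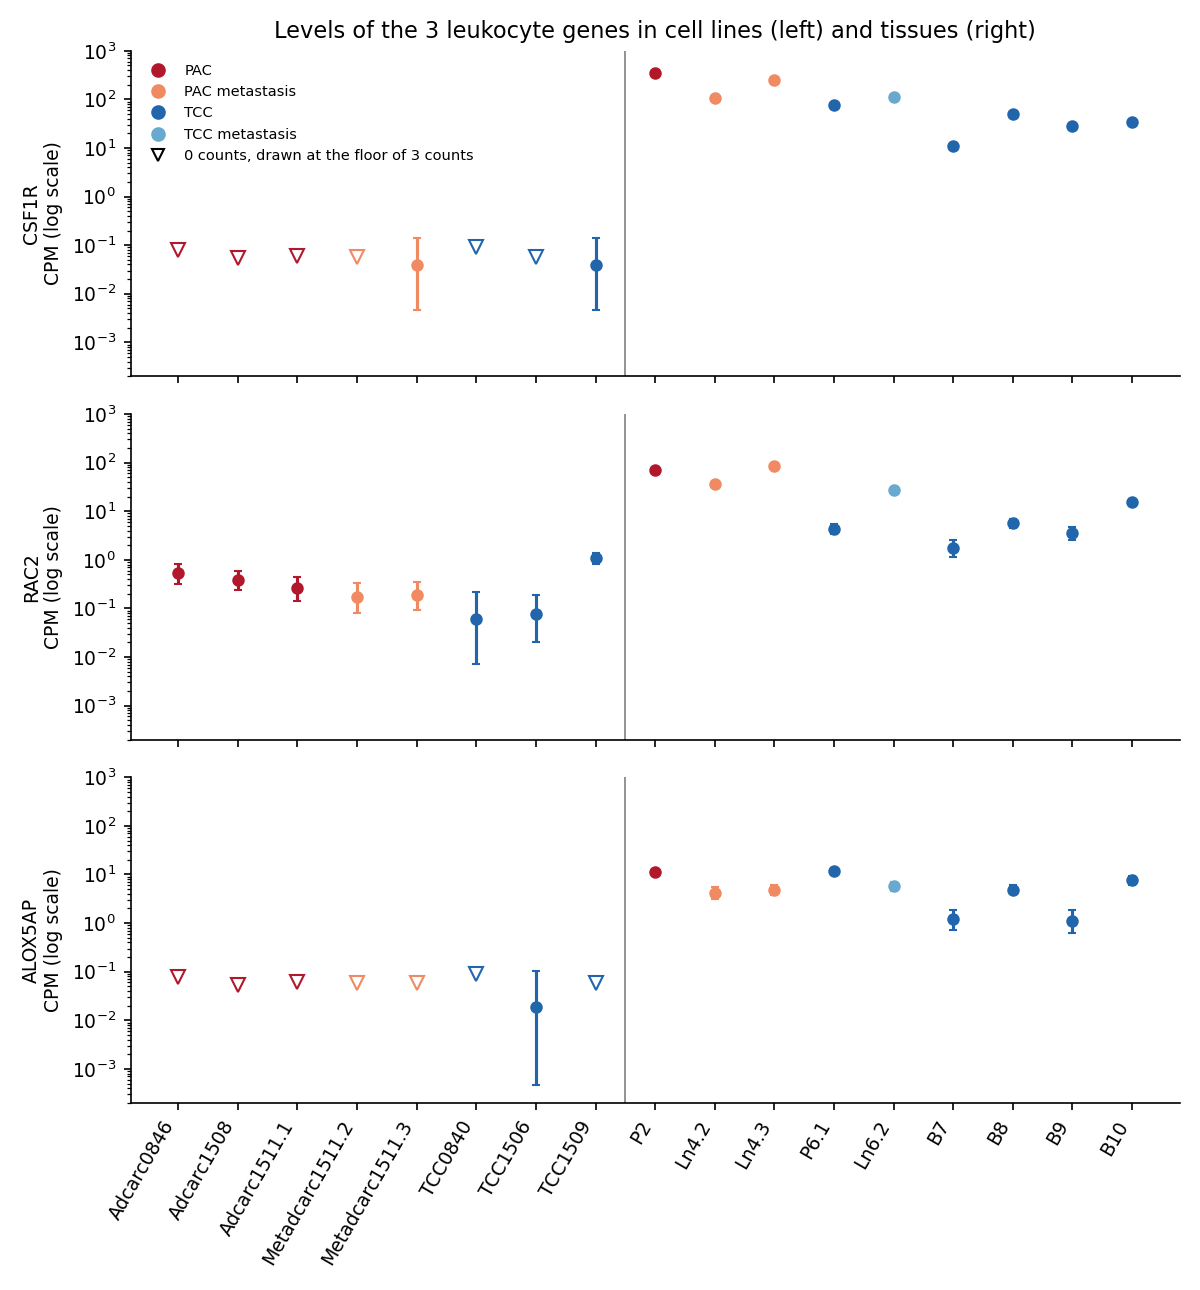
CPM of CSF1R, RAC2 and ALOX5AP (log axes) in the 8 cell lines and the 9 tissues, colored by histology. Points are pooled samples with exact 95% Poisson intervals, which cover counting error only, and open triangles mark 0 counts at the floor of 3 counts. Every tissue lies above every cell line, and TCC1509 has the highest RAC2 level of the cell lines at 1.08 CPM.

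The order of the tissues was much the same for CSF1R and RAC2 and another one for ALOX5AP. For CSF1R it was P2 (352 CPM), Ln4.3 (250), Ln6.2 (114), Ln4.2 (109), P6.1 (77.0), B8 (49.2), B10 (34.5), B9 (27.7) and B7 (10.8). Only Ln6.2 and Ln4.2 were not apart beyond counting error, with a ratio of 1.04 (exact 95% interval 0.973 to 1.12). Since each tissue is 1 library, such intervals hold no spread between animals or between pieces of a tumor.

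For RAC2 the order was Ln4.3 (85.8 CPM), P2 (70.8), Ln4.2 (36.5), Ln6.2 (27.2), B10 (15.4), B8 (5.59), P6.1 (4.37), B9 (3.54) and B7 (1.73). The neighbors B8 and P6.1 did not differ beyond counting error, and neither did P6.1 and B9. The lowest 4 tissues rest on 27 to 100 counts each.

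For ALOX5AP the order was P6.1 (12 CPM), P2 (11.3), B10 (7.63), Ln6.2 (5.78), B8 (4.86), Ln4.3 (4.85), Ln4.2 (4.2), B7 (1.22) and B9 (1.11). It rests on 15 to 217 counts, and only 2 of the 8 steps in this order exceeded counting error, from P2 to B10 (1.48-fold, 1.14 to 1.94) and from Ln4.2 to B7 (3.45-fold, 2.03 to 6.13). The tissues Ln4.3 and Ln4.2, the first and the third for RAC2, were the sixth and the seventh for ALOX5AP. P6.1 was the first for ALOX5AP and the seventh for RAC2.

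Over the 9 tissues, log2(CPM + 1) of CSF1R and RAC2 had a Pearson's r of 0.89 and a Spearman's rank correlation of 0.90, and r was 0.81 without B7 and P2, the tissues farthest from the median. CSF1R and ALOX5AP had an r of 0.66 and a rank correlation of 0.48, with an r of 0.29 without the same tissues. RAC2 and ALOX5AP had an r of 0.49 and a rank correlation of 0.30, with an r of 0.39 without B7 and Ln4.3. These values describe 9 tissues of 7 dogs, and both values of a point come from the same library.

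Levels of different genes can be compared per length, for which the deposited TPM (a scaled transcript abundance) were averaged over lanes. In P2, RAC2 stood at 238 TPM, CSF1R at 194 and ALOX5AP at 19.2. In B7 they were at 5.20, 5.31 and 1.86 TPM. CSF1R exceeded ALOX5AP in 9 of 9 tissues, by 1.47 times in B10 to 16.7 times in Ln4.3. CSF1R exceeded RAC2 in 4 of 9 tissues, P6.1, B8, B9 and B7, and the ratio ran from 0.366 in B10 to 2.88 in P6.1.

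The ratio of RAC2 to ALOX5AP varied most, from 0.720 in P6.1 to 35.0 in Ln4.3, a 48.6-fold spread. P6.1 was the 1 tissue in which ALOX5AP (18.3 TPM) stood above RAC2 (13.2 TPM). In P6.1 the CSF1R level was 38.1 TPM.

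**Figure D2:**
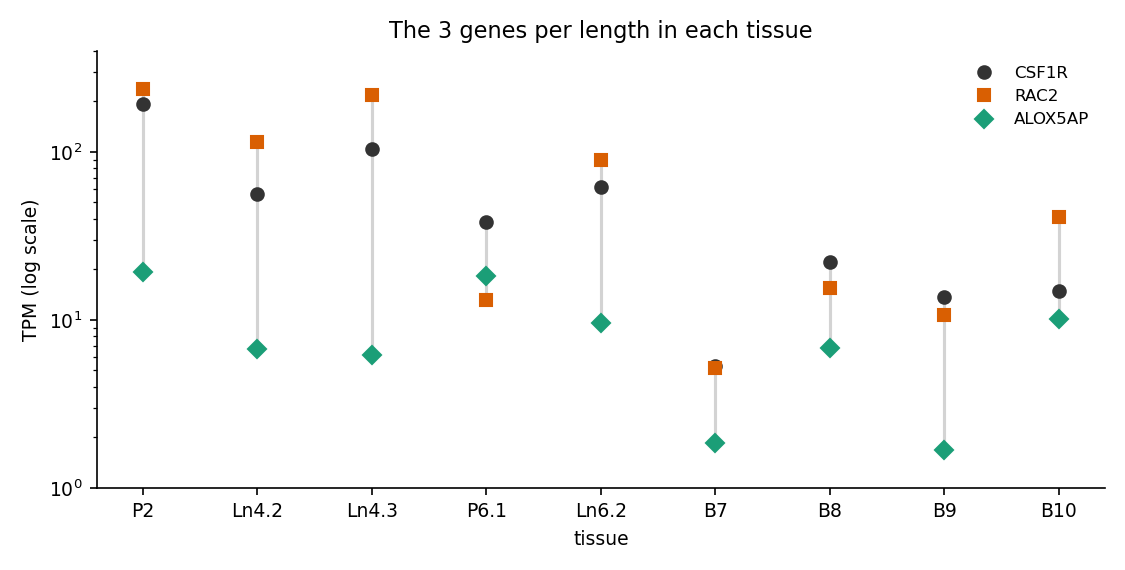
TPM (log axis) of the 3 genes in each of the 9 tissues, with a grey line from the lowest to the highest gene of a tissue. ALOX5AP is the lowest of the 3 genes in 8 tissues, and RAC2 is the lowest in P6.1.

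The 8 cell lines were compared with the 9 tissues to ask how the genes differ between culture and tumor. A gene passed where edgeR's quasi-likelihood test, adjusted by Benjamini-Hochberg over all genes tested, gave an adjusted p up to 0.01 and levels differed 2-fold or more. CSF1R, RAC2 and ALOX5AP were lower in the cell lines and passed. In this test 7.66% of the 12396 genes tested passed as lower in cell lines. All 3 genes entered the test through the tissues alone, since not every cell line reached 10 counts, so their passing says little beyond the levels above.

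For RAC2 the log2 fold change was -6.50 (SE 0.96, edgeR adjusted p = 0.000121). Summed over all samples, RAC2 was 76.7 times higher in tissues (exact 95% interval 64.6 to 91.8). For CSF1R the fitted log2 fold change was -13.12 (SE 1.07, edgeR adjusted p = 3.41e-07) and for ALOX5AP it was -9.91 (SE 0.76, edgeR adjusted p = 2.13e-07). Both fits lean on 4 counts and 1 count in all cell lines, and the summed levels were 10800 times higher in tissues for CSF1R (interval 4217 to 39641) and 2301 times for ALOX5AP (412 to 91011).

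With the dog as a block, all 3 genes still passed, with edgeR adjusted p between 1.09e-05 and 0.0019. Only dogs 2, 4, 6 and 7 gave both cell lines and tissues, so the difference in this fit rests on them. Adcarc0846, TCC0840 and 2 libraries of TCC1506 carry sample numbers that run in 1 series with those of the tissues, which is not a labelled batch. Against these cell lines alone, CSF1R (log2 fold change -14.25) and ALOX5AP (-8.66) passed, both at an edgeR adjusted p of 0.00619. RAC2 (-7.03) did not, at an edgeR adjusted p of 0.0278. Without the 3 lymph node tissues, all 3 genes passed, and RAC2 had a log2 fold change of -5.80.

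In the 5 pairs, every tissue stood above its own cell line for each gene. CSF1R was at least 4466-fold higher in P2 than in Adcarc0846, at least 1886-fold higher in Ln4.2 than in Metadcarc1511.2 and at least 191-fold higher in B7 than in TCC1506, against the floor of 3 counts per cell line. With 2 counts in the cell line, the ratio was 6549 (1812 to 54095) for Ln4.3 over Metadcarc1511.3 and 2000 (553 to 16532) for P6.1 over TCC1509. ALOX5AP was at least 208-fold higher in P6.1, at least 143-fold higher in P2, at least 84.9-fold higher in Ln4.3 and at least 72.6-fold higher in Ln4.2 than in the cell lines made from them. In B7 it was 64.8 times the level of TCC1506, which had 1 count (10.3 to 2694).

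RAC2 differed by very unequal factors between the pairs. It was 450 times higher in Ln4.3 than in Metadcarc1511.3 (244 to 941), 210 times higher in Ln4.2 than in Metadcarc1511.2 (110 to 462) and 135 times higher in P2 than in Adcarc0846 (86.7 to 221). It was 23.0 times higher in B7 than in TCC1506 (8.03 to 90.6) and 4.05 times higher in P6.1 than in TCC1509 (2.84 to 5.82). The smallest ratio joins the cell line with the highest RAC2 level, 1.08 CPM, to a tissue with the third lowest, 4.37 CPM.

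**Figure D3:**
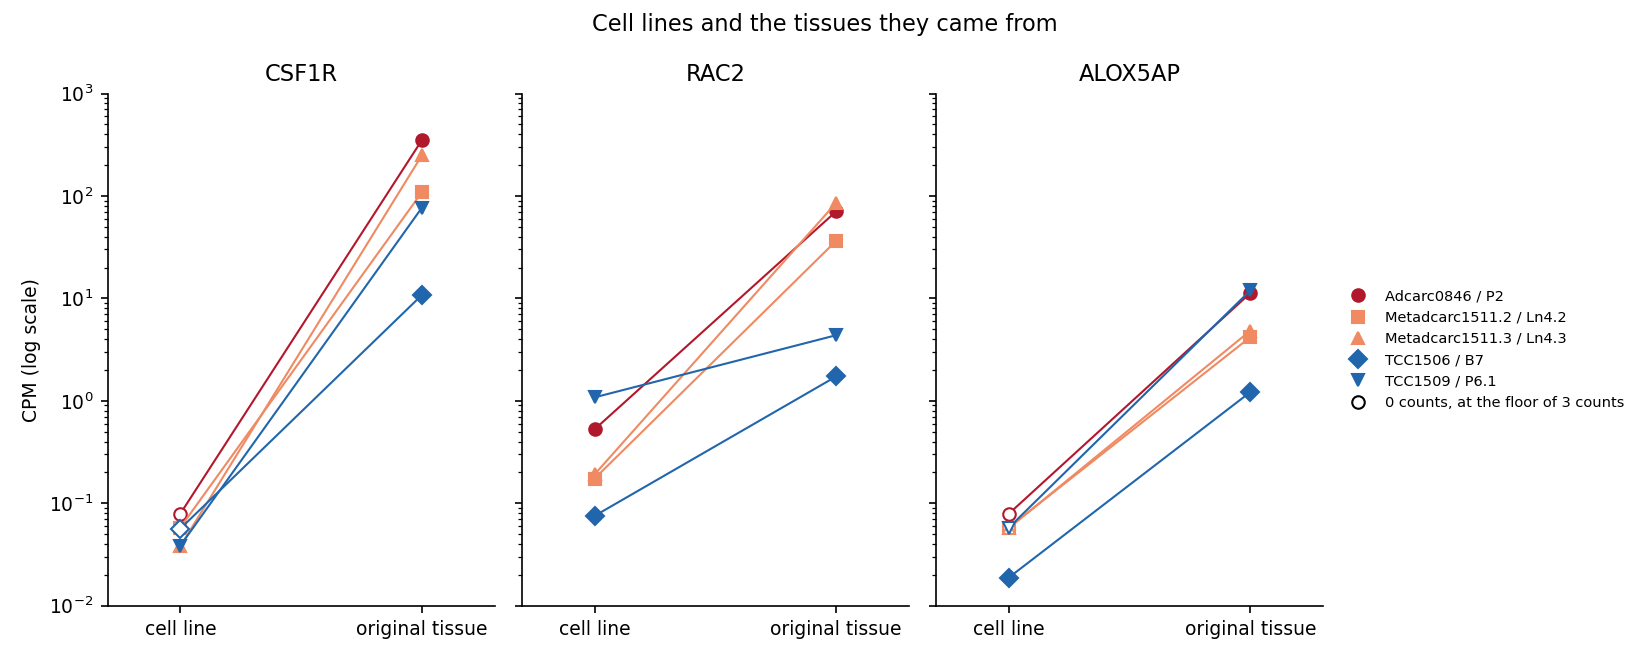
CPM (log axes) of the 3 genes in the 5 cell lines and the tissues they came from, with a line for each pair and open symbols for 0 counts, drawn at the floor of 3 counts. RAC2 rises least from TCC1509 (1.08 CPM) to P6.1 (4.37 CPM).

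Within the classes tested with the pair as a term, RAC2 (log2 fold change -8.29, SE 0.40, edgeR adjusted p = 0.00441) and CSF1R (-12.99, SE 0.47, edgeR adjusted p = 0.00376) passed in the 2 PAC metastasis pairs. ALOX5AP (-10.25, SE 0.77) missed the threshold at an edgeR adjusted p of 0.0109. All 3 genes entered this test and that of the TCC pairs through the tissues alone, as above. Here 9.56% of the 15123 genes tested passed as lower in cell lines. DESeq2 called all 3 genes as lower in these cell lines, beside 22.2% of all genes tested, and both pairs come from dog 4. Without the pair as a block, ALOX5AP passed as well (edgeR adjusted p = 0.00637).

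In the 2 TCC pairs, no gene of 13599 tested passed by edgeR (0%), 845 had an unadjusted p under 0.05, and DESeq2 called 489 (3.60%). The log2 fold changes by edgeR were -11.05 for CSF1R (adjusted p = 0.517), -8.24 for ALOX5AP (adjusted p = 0.625) and -3.16 for RAC2 (adjusted p = 0.798). With a sample or replicate left out, the RAC2 value ran from -5.31 without TCC1509 to -1.50 without P6.1. DESeq2 called CSF1R (adjusted p = 1.77e-15) and ALOX5AP (adjusted p = 0.000188) but not RAC2. The change of RAC2 was 5.21 log2 units smaller in the TCC pairs than in the PAC metastasis pairs (SE 1.11), a difference that did not pass by edgeR (adjusted p = 0.453), while DESeq2 called it (adjusted p = 0.000792). By edgeR 0 of 15429 genes passed for this difference, 1503 had an unadjusted p under 0.05, and DESeq2 called 453 (2.94%).

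Among the tissues, RAC2 was at 36.5, 70.8 and 85.8 CPM in the PAC tissues Ln4.2, P2 and Ln4.3 and between 1.73 and 27.2 CPM in the 6 TCC tissues (median 4.98), so that the groups did not overlap. Of the 13581 genes tested, 6.43% were higher in every PAC tissue than in every TCC tissue. CSF1R was at 109 to 352 CPM in PAC tissues and at 10.8 to 114 in TCC tissues (median 41.9), where Ln6.2 overlapped with Ln4.2. ALOX5AP was at 4.2 to 11.3 CPM and at 1.11 to 12 CPM, and its ranges overlapped widely.

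The log2 differences of PAC over TCC tissues were 2.62 for RAC2 (SE 0.79, edgeR adjusted p = 0.214), 2.07 for CSF1R (SE 0.67, edgeR adjusted p = 0.219) and 0.22 for ALOX5AP (SE 0.77, edgeR adjusted p = 0.905). None of the 3 passed. By edgeR 0 of 13581 genes passed here (0%), 2252 had an unadjusted p under 0.05, and DESeq2 called 268 (1.97%), none of the 3 among them. All PAC tissues come from dogs 2 and 4, both male, and 2 of the 3 are lymph node metastases. The bladder TCC tissues all come from females, so histology, dog, sex and site are confounded in part.

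The 3 lymph node metastases held 27.2, 36.5 and 85.8 CPM of RAC2, and the 6 primary tumors 1.73 to 70.8 with a median of 4.98. P2 is the 1 primary tumor above a metastasis. CSF1R was at 109, 114 and 250 CPM against 10.8 to 352 (median 41.9), and ALOX5AP at 4.2, 4.85 and 5.78 CPM against 1.11 to 12 (median 6.25). The log2 differences of metastasis over primary tumor were 1.57 for RAC2 (SE 1.04, edgeR adjusted p = 0.757), 0.79 for CSF1R (SE 0.93, adjusted p = 0.813) and -0.34 for ALOX5AP (SE 0.79, adjusted p = 0.902). Without P2, they were 3.03 for RAC2 (adjusted p = 0.0548), 1.98 for CSF1R (adjusted p = 0.104) and -0.11 for ALOX5AP (adjusted p = 0.960). By edgeR 0 of 13478 genes passed (0%), 845 had an unadjusted p under 0.05, and DESeq2 called 59 (0.438%), for which it gave no p for RAC2.

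In dog 6, the lymph node metastasis Ln6.2 and the primary tumor P6.1 differed in opposite directions by gene. RAC2 was 6.23 times higher in Ln6.2 (27.2 against 4.37 CPM, exact 95% interval 4.89 to 8.02) and CSF1R was 1.48 times higher (114 against 77.0 CPM, 1.38 to 1.59). ALOX5AP was lower, with a ratio of 0.482 (5.78 against 12 CPM, 0.373 to 0.617). Between the 2 metastases of dog 4, Ln4.3 held 2.35 times the RAC2 level (2.12 to 2.61) and 2.28 times the CSF1R level of Ln4.2 (2.15 to 2.43). Their ALOX5AP levels did not differ beyond counting error, with a ratio of 1.15 (0.807 to 1.66). These intervals compare single libraries, not conditions.

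RAC2 was the 1 gene of the 3 with enough counts to enter the test between cell lines. It entered through TCC1509 alone, the 1 cell line with at least 10 RAC2 counts in every library. RAC2 differed between the 8 cell lines beyond the spread of their libraries (edgeR, 22 libraries, adjusted p = 0.000525), where 69.4% of 13916 genes passed. The libraries of a cell line come from 1 culture, so this p measures the spread within cultures. The passing of RAC2 therefore says little beyond the levels below. TCC1509 had 1.14, 1.40 and 0.722 CPM in its 3 libraries, with a mean of 1.09 ± 0.342 (SD). Adcarc0846 followed with 0.608 and 0.438 CPM. Adcarc1508 had 0.251, 0.683 and 0.223 CPM, and Adcarc1511.1 had 0.387, 0.111 and 0.314.

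The lowest were TCC0840 with 0 and 0.113 CPM and TCC1506 with 0.117, 0.0590 and 0.0520. Metadcarc1511.2 (mean 0.172 ± 0.0901) and Metadcarc1511.3 (mean 0.188 ± 0.138) lay between them and Adcarc1511.1, within the spread of their libraries. A library outside TCC1509 holds at most 12 RAC2 counts, and the lowest of TCC1509 holds 13. The call was lost without replicate 1 (adjusted p = 0.0330) and without replicate 2 (adjusted p = 0.0128).

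RAC2 shares long stretches with RAC1 and RAC3, so reads could be split between them. Of the 61 lane values of RAC2 above 0 in cell lines, 1 was not a whole number, and of 36 in tissues 3 were not. The lane values of ALOX5AP above 0 were whole numbers. In tissues 34 of 36 lane values of CSF1R were not whole, so that its estimated counts hold reads assigned in part.

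The 7 lists of cell type markers held 64 genes, of which 56 could be paired with an identifier. The pairing used the paper's supplementary files on its differentially expressed and drug resistance genes, so it was not independent of these data. Of the 56 genes, 33 mark leukocytes (15 myeloid, 11 pan-leukocyte and 7 lymphocyte genes). In a cell line 12 to 23 of the 33 were at 0 and 3 to 6 stood at 1 CPM or more, while their levels varied widely between tissues. Their summed level was 16.5 to 43.6 CPM in the cell lines and 222 CPM in B7 to 3490 CPM in P2 in the tissues. CD68, CD163, CD14, PTPRC, CD3E, CD79A and MS4A1 could not be paired and were not analysed here.

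The order of the tissues by these 33 genes was P2 (3490 CPM), Ln4.3 (2818), Ln6.2 (1557), Ln4.2 (1363), P6.1 (1259), B10 (757), B8 (628), B9 (307) and B7 (222). That is the order of CSF1R apart from B10 and B8, which change places. RAC2 in P6.1 and ALOX5AP in P6.1, Ln4.3, Ln4.2 and B10 stood away from it. A sum gives most weight to genes with high levels, such as C1QB (317 CPM) and C1QC (419 CPM) in P6.1. By the mean log2(CPM + 1), P6.1 stood below B10 in the myeloid (3.54 against 3.78) and pan-leukocyte lists (4.13 against 4.2). The same held for the lymphocyte list (0.77 against 1.35). P6.1 stood above B8 in the myeloid (3.32) and pan-leukocyte (3.77) lists and below it in the lymphocyte list (0.94). The fibroblast list ran from 509 CPM in B7 to 89543 in P2, and the epithelial list from 189 CPM in P2 and 297 in Ln6.2 to 3800 in B9. P2 and Ln6.2 are labelled as carcinomas. Of the 8 epithelial genes, MAL2 (0.715 and 0.0628 CPM) and CLDN7 (2.86 and 0.0628 CPM) were the lowest in them. JUP (96.9 and 187 CPM) and F11R (51.1 and 53.6 CPM) were the highest. The cell line TCC1509 of dog 6 also held little MAL2 (0.0577 CPM) and CLDN7 (0.154 CPM). The part of tumor cell content in the levels of the 3 genes was not tested.

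**Figure D4:**
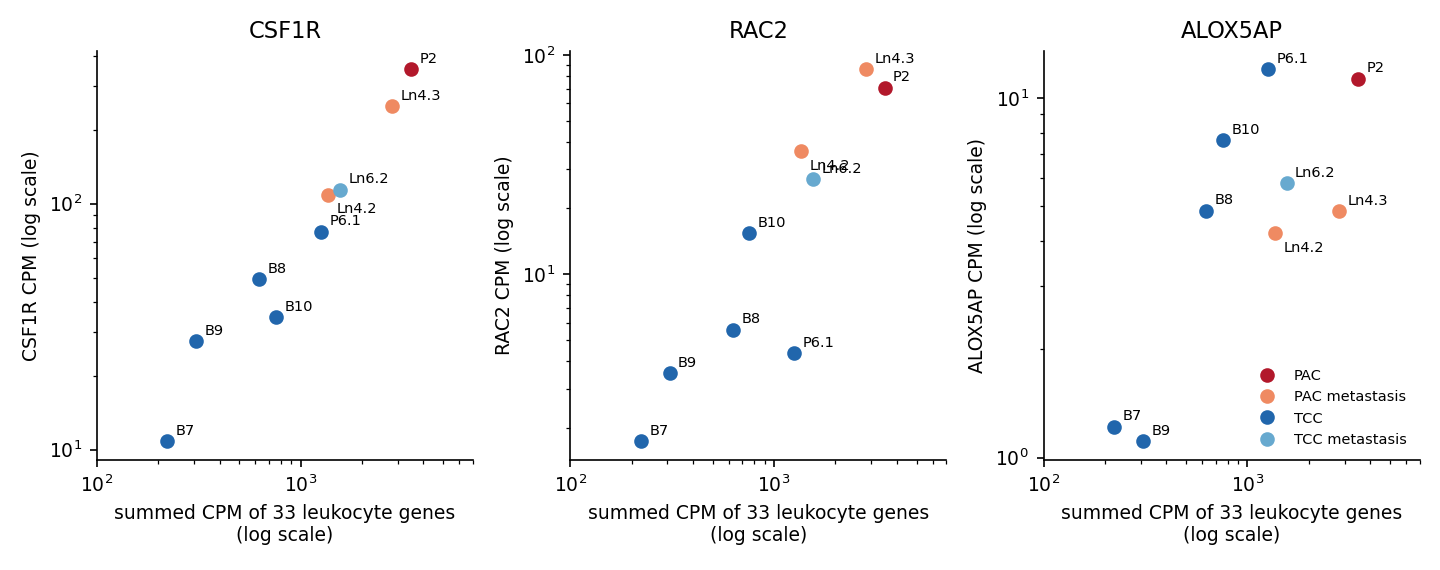
CPM of the 3 genes against the summed CPM of the 33 leukocyte genes in the 9 tissues (log axes), colored by histology. CSF1R follows the sum from B7 (222 CPM) to P2 (3490 CPM). Against this sum, P6.1 lies low for RAC2 (4.37 CPM) and high for ALOX5AP (12 CPM). In P6.1, C1QB (317 CPM) and C1QC (419 CPM) weigh most in the sum.

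With the mean log2(CPM + 1) of the myeloid list, CSF1R had an r of 0.96 over the 9 tissues, RAC2 0.93 and ALOX5AP 0.74. Without B7 and P2 these were 0.88, 0.93 and 0.45. With the lymphocyte list, r was 0.88 for CSF1R, 0.97 for RAC2 and 0.48 for ALOX5AP, and 0.70, 0.95 and 0.39 without Ln4.3 and P2. With the MHC class II list it was 0.62, 0.51 and 0.67, and 0.23, 0.32 and 0.47 without B7 and Ln4.2. Fibroblast genes also moved with CSF1R (r = 0.81) and RAC2 (r = 0.77), as did endothelial genes (0.88 and 0.93), and epithelial genes moved against them (-0.63 and -0.59). Without the 2 farthest tissues, these were 0.72 and 0.70 (fibroblast), 0.66 and 0.90 (endothelial) and -0.55 and -0.57 (epithelial).

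The lists' genes, like the 3 genes, mostly entered the comparison of cell lines and tissues through the tissues alone, where they are high, so that the counts of genes passing as lower and the medians describe levels and support nothing further. That holds for all 10 tested myeloid genes, 7 of the 9 pan-leukocyte genes and the 1 lymphocyte gene. In the myeloid list, 10 of 15 genes were tested, and 9 passed as lower in cell lines, beside 7.66% of all genes tested. The median log2 fold change of the 10 was -10.84, and -9.61 with the genes at 0 in every cell line at their bound, beside -0.02 for all genes tested. C1QB and C1QC, subunits of the complement component C1q, had log2 fold changes of -15.82 and -15.31. ITGAX, an integrin subunit of dendritic cells and macrophages, had -12.25, and SPI1, the transcription factor of the myeloid lineage, -11.92. C1QB, TREM2 and TYROBP were at 0 in every cell line. Of the 15 genes, 11 were lower in every cell line than in every tissue, beside 3.45% of the 12396 genes tested. The 11 include TREM2 and TLR2, which were not among the genes tested, so the shares are not of like sets. FES did not pass, with a log2 fold change of -2.92 (edgeR adjusted p = 0.0288) and up to 16.4 CPM in Metadcarc1511.3.

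In the pan-leukocyte list, 8 of 9 tested genes passed as lower in cell lines, beside 7.66% of all genes tested. The median log2 fold change of the 9 was -7.47. LAPTM5, a lysosomal protein of blood cells, had a log2 fold change of -8.88. DOCK8, an exchange factor for small GTPases, had -3.34 and reached 23.4 CPM in TCC0840, above its level in B7 (21.8 CPM). ITGB2, the shared chain of the leukocyte integrins, did not pass (-4.19, edgeR adjusted p = 0.0220) and stood at 16.3 CPM in Adcarc0846 and 17 CPM in TCC0840. With the dog as a block ITGB2 passed (-6.59, edgeR adjusted p = 0.00363) and HVCN1, a proton channel, did not (-3.87, edgeR adjusted p = 0.0112). In the lymphocyte list, 1 of 7 genes entered the test, IL2RG, the shared chain of several interleukin receptors, and it passed (-7.32, edgeR adjusted p = 0.0025), but not with the dog as a block (-8.84, edgeR adjusted p = 0.0131). TCC1509, the cell line with the most RAC2, held 5 of the 33 leukocyte genes at 1 CPM or more, which were FES (11.1), HVCN1 (4.81), LAPTM5 (4.06), IL2RG (1.21) and PLEK (1.10), while C1QB, C1QC, SPI1 and TYROBP were at 0 in it. Adcarc1511.1 also held 5 such genes and Metadcarc1511.3 held 6, with PLEK at 3.41 CPM.

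Of the MHC class II genes, DLA-DRA passed as lower in cell lines (-8.51, edgeR adjusted p = 0.00229) and CD74 did not (-5.12, edgeR adjusted p = 0.0130), though it passed with the dog as a block (-9.87, edgeR adjusted p = 0.00984). Both entered the test through the tissues alone. Among the fibroblast genes 4 of 7 and among the endothelial genes 4 of 5 passed as lower, beside 7.66% of all genes tested. In each list, 3 of the 4 that passed entered the test through the tissues alone. The fibroblast genes COL3A1 (-6.66), DCN (-4.33) and OGN (-3.43) did not pass. COL3A1 and DCN stood at 577 and 419 CPM in TCC1509. The endothelial gene FLT4 (-0.26) did not pass either. Of the 6 epithelial genes tested, 0 passed by edgeR, 1 had an unadjusted p under 0.05 and 1 was called by DESeq2, and their median was 0.48.

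**Figure D5:**
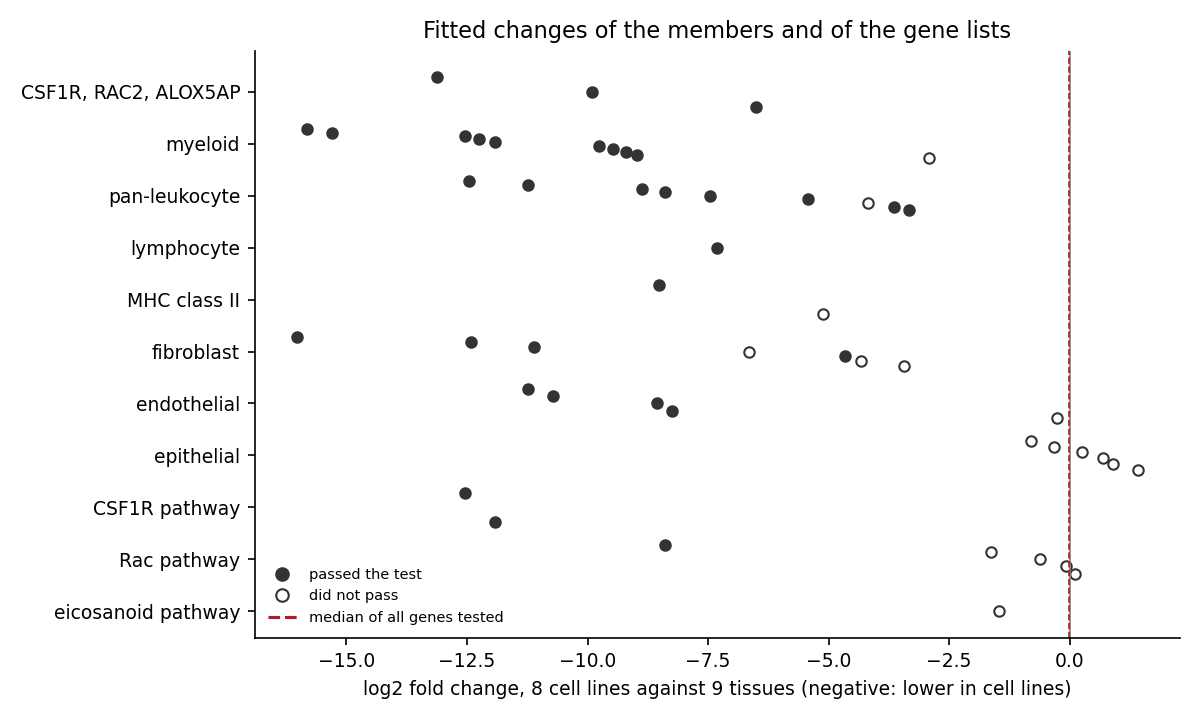
Log2 fold changes of the 3 genes and of the genes of each list in the 8 cell lines against the 9 tissues, by edgeR. Filled points passed the test and open points did not, and the dashed line is the median of all genes tested, -0.02. Leukocyte genes lie to the left of it and the 6 epithelial genes lie around it.

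Around CSF1R, the ligands CSF1 and IL34 could not be paired with an identifier. SPI1 and TYROBP, an adaptor that carries signals of myeloid receptors, both passed as lower in cell lines, at -11.92 and -12.54, and belong to the myeloid list as well. Both entered the test through the tissues alone. SPI1 was at 1.47 CPM in B7 to 58.2 CPM in P2, and TYROBP at 1.73 to 58.7 CPM in the same tissues.

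Around RAC2, 5 of the 10 listed genes could be paired, and 1 passed as lower in cell lines, beside 7.66% of all genes tested. That was NCKAP1L, the blood cell subunit of the WAVE complex through which Rac acts on actin, at -8.40 (edgeR adjusted p = 0.000130). NCKAP1L entered the test through the tissues alone, so its passing says little beyond its levels. The other 4 entered through both groups. They are used by many cell types and did not pass, with log2 fold changes of -1.64 for ELMO1, -0.62 for RHOG, -0.08 for IQGAP1 and 0.11 for ABI1. IQGAP1, a scaffold that binds active Rac, was at 519 to 1263 CPM in the cell lines and at 564 to 1146 CPM in the tissues. RAC1 and the NADPH oxidase genes CYBB, NCF1 and NCF4 were not analysed here.

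Around ALOX5AP, 4 of 7 listed genes could be paired, and ALOX5, LTA4H and LTC4S, the enzymes of leukotriene synthesis, could not. PTGS1, a cyclooxygenase, was the 1 tested and did not pass (-1.46, edgeR adjusted p = 0.435). It stood at 31.4 CPM in TCC1506, where ALOX5AP had 1 count. ALOX15, another lipoxygenase, was at most 0.0896 CPM in the cell lines and 0.221 to 19.7 CPM in the tissues, highest in Ln4.3. PTGIR, the prostacyclin receptor, was at most 0.0597 CPM in the cell lines and 0.449 to 22.5 CPM in the tissues. PTAFR, also in the myeloid list, overlapped between the groups. It reached 0.451 CPM in the cell line TCC1506 and ran from 0.0553 CPM in P6.1 to 5.58 CPM in P2.

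Only 1120 of the 32183 genes had a symbol, taken from the paper's supplementary files. Those files cover its differentially expressed genes and genes ranked for drug resistance, so the search below does not span all genes. The genes whose level over the 9 tissues was most like that of each of the 3 were sought among 1063 genes with a symbol and a mean of at least 1 CPM, by the Pearson correlation of log2(CPM + 1). For CSF1R they were TLR7 (0.978), LAPTM5 (0.966), NCKAP1L (0.957), ITGA4 (0.955) and ITGB2 (0.952). For RAC2 they included ICAM2 (0.990), FGR (0.986), IL2RG (0.980) and NCKAP1L (0.976). RAC2 ranked at 38 for CSF1R, and CSF1R at 42 for RAC2.

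For ALOX5AP they were SERPINA1 (0.905), C1QB (0.881), CHRNE (0.876), LOC478984 (0.868) and HHEX (0.863). The best match of ALOX5AP was thus lower than the fifth of the others. TLR7, a receptor for single-stranded RNA, ran from 0.962 CPM in B7 to 57.6 in P2. SERPINA1, the protease inhibitor alpha-1 antitrypsin, ran from 5.84 CPM in B7 to 107 in P2. HHEX, a homeobox factor, was higher in Metadcarc1511.2 (18.9 CPM) than in any tissue (at most 14.5 CPM in P2).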

How the data were processed

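RNA sequencing libraries of 8 cell lines (22 libraries) and 9 tissues were analysed, each from 4 lanes. After trimming (Trimmomatic 0.36) and alignment by STAR 2.5.3 to CanFam3.1, the authors quantified Ensembl genes with RSEM 1.3.0 and deposited expected counts and TPM per lane. Of the expected counts above 0 that the authors deposited, 17.4% were not whole, and none were normalized. Here the expected counts of all lanes of a pooled sample were added and then rounded. CPM are counts scaled by the total of the sample to a common library size, without TMM factors. The deposited TPM were averaged over lanes and libraries.

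Samples were grouped by their labels. In 1 Adcarc0846 library the labels of lanes 2 to 4 run on to other names, and titles were used. Symbols came from the paper's supplementary files, which name 1120 of the 32183 identifiers. The 3 genes and the gene lists were chosen with earlier results of these data known. Named are the 3 genes, the listed genes with an identifier, and the 5 genes most correlated with each over the tissues, of which 1 is not reported here.

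Tests used edgeR 4.0.16 in R 4.3.3, by TMM factors and the quasi-likelihood F test with adjustment by Benjamini-Hochberg, on genes with at least 10 counts in all samples of either group. For a test with 0 counts in 1 group, fitted fold changes depend on the prior count. In the pairs, cell line and tissue come from the same dog by their labels, and the pair was a term. DESeq2 1.42.0, the authors' tool, was an alternative, beside RLE factors, no filter, unpooled libraries, other blocks and left-out samples. The test between both classes of pairs, the fit without lymph node tissues and the fit without dog 6 were chosen after seeing the data. The tests were tried on simulated counts with 200 changed genes. Intervals are exact (Poisson, and conditional binomial for ratios, scipy 1.17.1) and cover counting error only, as does the floor of 3 counts. Tables were read with Python 3.11.15 and pandas 2.3.3, and figures drawn with matplotlib 3.10.9.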

Additional observations from a re-analysis of the deposited data

Results flagged for a closer look

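In each group of 4 to 10 samples, the gap between the highest or lowest sample and its neighbor was compared with the range of the group. In 12 groups of CPM values of the 3 genes, checked at both ends (24 tests), 4 samples stood far from the others. The nominal rate by chance is about 5%, but it holds for separate groups. These groups share samples, and CSF1R and RAC2 move together, so no excess over chance can be read from the 4. P2 stood far above the other 5 primary tumors for CSF1R (352 CPM, the next being P6.1 at 77.0) and for RAC2 (70.8 CPM, the next being B10 at 15.4). Among all 9 tissues it did not stand apart. P2 also held the highest fibroblast sum (89543 CPM) and the lowest epithelial sum (189 CPM) of the tissues, and their part in its levels was not tested.

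TCC1509 stood far above the other cell lines for RAC2, at 1.08 CPM, followed by Adcarc0846 at 0.526. All 3 of its libraries lay above every library of the other cell lines. ALOX5AP in TCC1506, at 0.0188 CPM, was marked because the other 7 cell lines were at 0, and it is 1 count in 1 library.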

How the results depend on the processing

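In the comparison of cell lines and tissues, the 3 genes passed under 26 alternatives each, apart from RAC2 against the cell lines in the tissues' series of sample numbers (-7.03, edgeR adjusted p = 0.0278). The number of genes passing was 1364, and it was 3456 without the count filter, 2051 with 31 libraries, 133 with the cell lines of that series, 536 with 1 sample per dog and type, 874 without the lymph node tissues and 1089 to 2085 with each sample left out (2085 without B7). With the patient as a replicate block, where the difference rests on the dogs with both cell lines and tissues, it was 932.

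In the PAC metastasis pairs, 1701 genes passed, 4841 by DESeq2, 2044 without the pair as a block, and 0 to 2184 with a sample or replicate left out. No gene passed there without Metadcarc1511.2 or without Metadcarc1511.3, where an arm is 1 sample assumed to vary like the other. The leave-out range was -8.87 to -7.63 for RAC2, -10.60 to -9.81 for ALOX5AP and -15.24 to -12.07 for CSF1R, and RAC2 and CSF1R lost their calls without either cell line. ALOX5AP passed by DESeq2 (-10.37) and without the pair block (-10.25). In the TCC pairs, DESeq2 called 489 genes, with CSF1R (-11.21) and ALOX5AP (-8.75) among them, and edgeR 0 in all 10 of its alternatives. There the leave-out range was -5.31 (without TCC1509) to -1.50 (without P6.1) for RAC2, -10.65 to -6.50 for ALOX5AP and -13.38 to -8.83 for CSF1R. For the difference between both kinds of pairs DESeq2 called 453 genes, RAC2 (5.22) included. For lymph node metastases against primary tumors it called 59, and edgeR 0 to 1 with a tissue left out (1 without Ln6.2). For PAC against TCC tissues it called 268. The cause of these differences was not tested.

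Between cell lines, 9657 genes passed, 10495 with the replicate number as a replicate block and 4078 to 7986 with a replicate left out (4078 without replicate 2). RAC2, which entered the main test through TCC1509 alone, kept its call with the block (adjusted p = 0.000708). Its adjusted p was 0.00566 to 0.0330 with a replicate left out. The deviations of same-numbered libraries had a median r of 0.173 (-0.257 to 0.871), against -0.0563 for libraries of different numbers. What same-numbered libraries share was not tested. Depth limits CSF1R and ALOX5AP in cell lines, where levels under 0.0541 to 0.0896 CPM cannot be told from 0.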

Other observations

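Some listed leukocyte genes had tissue patterns unlike those of the 3 genes. CLEC7A, a receptor for fungal glucans on myeloid cells, was highest in B10 (85.7 CPM) and B8 (45.7 CPM) and stood at 1.72 CPM in P2, where CSF1R was highest. RGS1, a regulator of chemokine receptor signals, was at 91.2 CPM in B7, the tissue with the lowest CSF1R and RAC2 levels, and at 156 CPM in Ln6.2 and 114 CPM in P6.1. CD74, the invariant chain of MHC class II, was highest in B8 (2723 CPM) and reached 264 CPM in TCC0840, above its 111 CPM in B7, while DLA-DRA in TCC0840 was at 20.1 CPM. TREM2, a receptor of macrophages, was at 2.5 CPM in P2 and at 21.9 CPM in Ln6.2. VPREB3, listed as a gene of B cells, was higher in Metadcarc1511.3 (9.93 CPM), Metadcarc1511.2 (3.92 CPM) and TCC1506 (3.08 CPM) than in any tissue (at most 2.37 CPM in B7). These patterns were described and not tested, and the genes were picked from the lists after their values were seen.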
